A study of Mus musculus with 2 samples.

Results

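The 9 genes described here carry iron through a cell. They are Tfrc, Slc11a2 and Slc11a1 on the uptake side, Fth1, Ftl1 and Ncoa4 in storage and release, Slc40a1 in export, Hmox1 in heme breakdown, and Ireb2 in regulation. They were taken by name, whatever their levels, from the 31053 genes listed for 2 single-cell libraries of sorted microglia, the resident macrophages of the brain. Both libraries came from the hypothalamus of young wild-type mice, several of them pooled, 20 hours after plasma protein coupled to a dye had been injected. Plasma-negative microglia lacked the dye at the sort and plasma-positive microglia carried it, and each sort gave 1 droplet library. Both groups had received the injection, so no uninjected cells enter the comparison. The question put to the 9 genes was whether Tfrc and the ferritin transcripts differed between the sorts in opposite directions.

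Iron arrives in blood bound to transferrin, and the transferrin receptor encoded by Tfrc carries that complex into endosomes. Ferritin, a shell built of the heavy chain Fth1 and the light chain Ftl1, stores iron in the cytosol. When iron is scarce, the iron regulatory proteins bind RNA hairpins called iron-responsive elements. Binding in the 5′ untranslated region blocks translation of ferritin, and binding in the 3′ untranslated region protects Tfrc mRNA from decay. Iron scarcity is therefore known to raise Tfrc mRNA, whereas it acts on ferritin largely at translation, which transcript counts do not report.

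The hairpins that set this system apart are shown for the 4 of the 9 genes in which the search below found a match. GENCODE M21 transcripts (GRCm38) were searched for a C, 5 bases, the loop CAGTGN and 5 bases able to pair with the first 5, G-T pairs allowed. Each sequence below is the sense strand, 5′ to 3′, with 6 more bases on either side and the loop in capitals.

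Tfrc hairpin 1: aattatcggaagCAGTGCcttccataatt
Tfrc hairpin 2: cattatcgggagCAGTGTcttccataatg
Tfrc hairpin 3: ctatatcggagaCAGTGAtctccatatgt
Tfrc hairpin 4: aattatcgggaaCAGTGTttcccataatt
Fth1 hairpin: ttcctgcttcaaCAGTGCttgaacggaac
Ftl1 hairpin: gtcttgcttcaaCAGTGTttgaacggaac
Slc40a1 hairpin: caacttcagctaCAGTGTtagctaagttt

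The 4 Tfrc hairpins lie in the 3′ untranslated region, all in exon 19 of 19, at chr16:32631219-32631247, chr16:32631598-32631626, chr16:32631663-32631691 and chr16:32631710-32631738 on the plus strand. The Fth1 hairpin is in the 5′ untranslated region in exon 1 of 4, at chr19:9982732-9982760 on the plus strand. The Ftl1 hairpin is in exon 1 of 4, at chr7:45459779-45459807 on the minus strand, and the Slc40a1 hairpin is in exon 1 of 8, at chr1:45925465-45925493 on the minus strand, both in the 5′ untranslated region. No match was found in protein-coding transcripts of the other 5 genes, which says only that these letters are not there. A hairpin with a mismatch in the 5 pairs or with another loop would be missed. The other 5 genes, Slc11a2 among them, may therefore still carry one. The 4 matched genes, Tfrc among them, may likewise carry more than are shown. Among all protein-coding genes with an annotated region, 31 of 20916 (0.148%) held a match in the 5′ and 129 of 21045 (0.613%) in the 3′ untranslated region. On the antisense strand the shares were 0.100% and 0.404%. A match is a description of sequence and not a measured binding site.

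The plasma-negative library kept 9860 of 9878 cells and 34534518 UMIs, the unique molecular identifiers that count each captured RNA molecule once. The plasma-positive library kept 10362 of 10390 cells and 41984977 UMIs. Median depth was 3270.5 and 3753 UMIs per cell, and mitochondrially encoded transcripts made up a median of 1.08% and 1.27% of a cell's UMIs. Each of 11 microglia markers was present in 64.4% of cells or more in both libraries, and 99.8% of cells in both held 4 or more of them. Erythroid and neutrophil RNA, which could bring iron genes of its own, was at or near 0. As counts scaled to a library total of 1000000 UMIs (CPM), the 7 erythroid markers summed to 0.0290 and 0.0476, and the 5 neutrophil markers to 0 and 0.0953. Of the 9 markers of border-associated macrophages, which clear heme, Stab1 was found in 40.9% and 45.4% of cells. The other 8 summed to 3.94 and 7.03 CPM, with Cd163 at 0 and 3 UMIs and Lyve1 at 0 in both. With a single library for each sort, replicate spread is unknown, and neither a test nor a p-value is given. Levels in CPM carry exact Poisson intervals, and ratios carry exact conditional binomial intervals, at 95% and for counting error only. These intervals take UMIs as independent and leave out the spread between cells. A lower level can come from fewer cells with the transcript or from less of it per cell. No cell type without these transcripts was at hand to give the share of cells that free RNA produces.

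Tfrc was lower and both ferritin genes were higher in the plasma-positive library. Tfrc (ENSMUSG00000022797, chromosome 16, 32608920 to 32632794, plus strand) stood at 14.4 CPM (13.1 to 15.7, 496 UMIs) in the plasma-negative library and at 10.5 CPM (9.55 to 11.5, 441 UMIs) in the plasma-positive one. The intervals do not overlap. Taken as plasma-positive over plasma-negative throughout, its log2 ratio was -0.45 (-0.64 to -0.26), a level 1.37 times as high in the plasma-negative library. Tfrc was the 1 member past the fold limit, a ratio of 0.8 or less or its inverse or more. It was short of that limit when each cell was thinned to 1000 or 2000 UMIs, with log2 ratios of -0.29 and -0.29. Both values lie within its interval, which is that of all UMIs. Thinned counts are lower, and their own, wider intervals were not computed. Giving equal weight to 10 bins of UMIs per cell, without thinning, left Tfrc at -0.45. At 10 CPM or more in at least 1 library, the level that takes in all 9 members, 72 of 8355 genes were lower past that limit (0.862%) and 78 higher past it (0.934%). Tfrc had the 7th lowest ratio of those genes, with 6 below it (0.0718%), and its low count gives it a wide interval.

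Fth1 (ENSMUSG00000024661, chromosome 19, 9980598 to 9985098, plus strand) stood at 2841 CPM (2823 to 2858) in the plasma-negative library and at 3409 (3391 to 3426) in the other. Its log2 ratio was 0.26 (0.25 to 0.27). Ftl1 (ENSMUSG00000050708, chromosome 7, 45457944 to 45459884, minus strand) stood at 1505 (1492 to 1518) and 1691 (1679 to 1704), a log2 ratio of 0.17 (0.15 to 0.18). Both genes were above their plasma-negative interval but short of the fold limit. At 50 CPM or more, where 6 of the 9 members are found, 13 of 3540 genes were higher past the limit (0.367%) and 6 lower past it (0.169%), and 0 of the 6 members were among them. With TMM scaling these counts were 20 and 4. The ratio of Fth1 had 24 genes above it (0.678%) and that of Ftl1 had 139 (3.93%). The median log2 ratio of these genes was -0.03, with quartiles at -0.09 and 0.04. Ftl1 has a pseudogene listed beside it, Ftl1-ps1, at 15.3 and 16.1 CPM, and how reads shared with it were counted is not given in the sources used here.

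**Figure D1:**
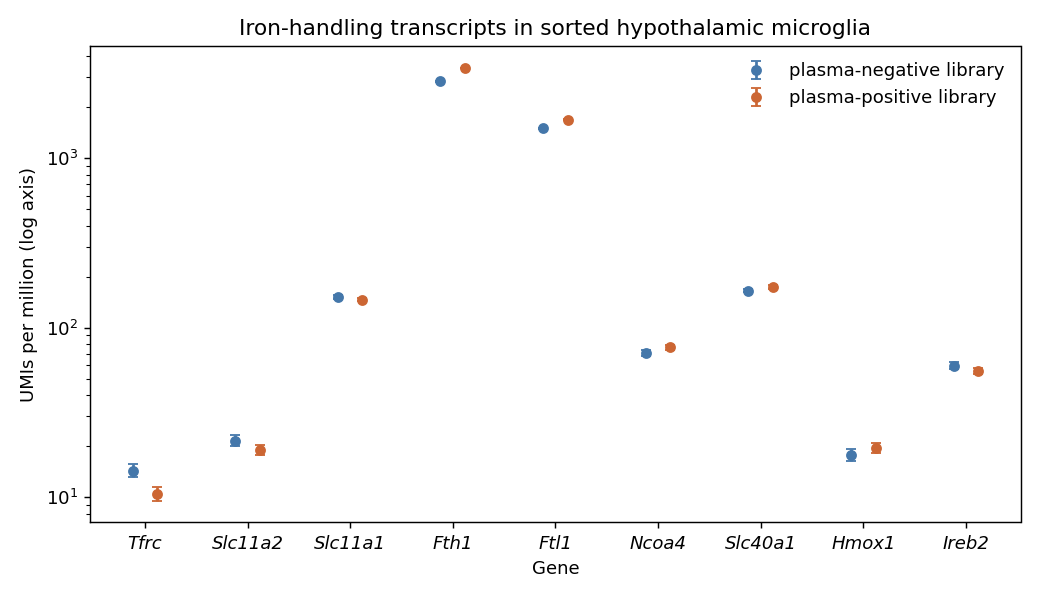
Level of each gene in CPM (log axis) in the plasma-negative (blue) and plasma-positive (orange) library, 1 library each, with exact 95% Poisson intervals that cover counting error only. Tfrc is lower in the plasma-positive library (14.4 against 10.5) and Fth1 is higher (2841 against 3409).

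The 2 differences can be joined in 1 number that no scaling of the libraries can move, the Tfrc UMIs per 1000 ferritin UMIs of the same library. It was 3.31 in the plasma-negative and 2.06 in the plasma-positive library, a log2 ratio of -0.68 (-0.87 to -0.50). Against Fth1 alone it was 5.06 and 3.08, a log2 ratio of -0.71, and against Ftl1 alone 9.55 and 6.21, a log2 ratio of -0.62. For a given number of ferritin molecules, the plasma-positive library held 0.623 (0.548 to 0.709) times as many Tfrc molecules. The make-up of ferritin transcripts differed less, with 1.89 and 2.02 Fth1 UMIs for each Ftl1 UMI, a log2 ratio of 0.09 (0.07 to 0.11).

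Ferritin did not stand alone among abundant transcripts. The 84 cytosolic ribosomal protein genes made up 9.03% and 10.1% of UMIs (plasma-negative first), a log2 ratio of 0.16, and the 13 mitochondrially encoded genes 1.20% and 1.42%, a log2 ratio of 0.25. Ferritin UMIs per 1000 ribosomal protein UMIs were 48.1 and 50.6, a log2 ratio of 0.07 (0.06 to 0.08), against 0.23 (0.22 to 0.24) per library total. Scaling by ribosomal UMIs moves every log2 ratio by -0.16, which places Ftl1 at 0.01 and Tfrc at -0.61. What the ribosomal and mitochondrial shares contribute to the ferritin difference was not tested.

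The divalent metal transporters were each lower or nearly level in plasma-positive cells. Slc11a2 (ENSMUSG00000023030, chromosome 15, 100387898 to 100425072, minus strand) encodes DMT1, which moves ferrous iron out of endosomes once transferrin has released it. It stood at 21.5 (20.0 to 23.1) and 19.0 (17.7 to 20.3) CPM, a log2 ratio of -0.18 (-0.33 to -0.03). Gm5475 overlaps it on the opposite strand, and since the use of strand is not given, its counts are uncertain. Slc11a1 (ENSMUSG00000026177, chromosome 1, 74375195 to 74386062, plus strand) encodes the metal transporter NRAMP1 of phagosomes and lysosomes. It stood at 151.6 (147.5 to 155.7) and 146.6 (143.0 to 150.3), a log2 ratio of -0.05 (-0.10 to 0.01) whose interval takes in 0. Of 3540 compared genes, 41.9% had a lower ratio than Slc11a1.

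Ncoa4 (ENSMUSG00000056234, chromosome 14, 32159865 to 32179855, plus strand) encodes the receptor that delivers ferritin to autophagy so that its iron can be released. It stood at 70.8 CPM (68.0 to 73.7) without the dye and at 76.8 (74.2 to 79.5) with it. Its log2 ratio was 0.12 (0.04 to 0.19), on the same side as ferritin. Slc40a1 (ENSMUSG00000025993, chromosome 1, 45908068 to 45926523, minus strand) encodes ferroportin, the iron exporter. It stood at 166 (161 to 170) and 174 (170 to 178), a log2 ratio of 0.07 (0.02 to 0.12). Hmox1 (ENSMUSG00000005413, chromosome 8, 75093621 to 75100589, plus strand) encodes heme oxygenase 1, which opens the heme ring and frees its iron. It stood at 17.8 (16.4 to 19.3) and 19.6 (18.2 to 20.9), a log2 ratio of 0.13 (-0.02 to 0.29). The signs of these 3 genes turned when scaled by ribosomal UMIs, to -0.04 for Ncoa4, -0.09 for Slc40a1 and -0.02 for Hmox1. Ireb2 (ENSMUSG00000032293, chromosome 9, 54863789 to 54912530, plus strand) encodes an iron regulatory protein that binds the hairpins shown above. It stood at 59.8 (57.2 to 62.4) and 55.7 (53.5 to 58.0), a log2 ratio of -0.10 (-0.19 to -0.02).

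Of the 9 members, 5 were higher and 4 lower in the plasma-positive library, with a median log2 ratio of 0.07. All genes at 10 CPM or more had a median of -0.04, and 35.7% of them were higher. The lower members were Tfrc, Slc11a2, Slc11a1 and Ireb2, and the higher ones were both ferritin genes, Ncoa4, Slc40a1 and Hmox1. Among the 4 genes with a hairpin match, Tfrc, whose matches lie in the 3′ untranslated region, was lower. Fth1, Ftl1 and Slc40a1, whose matches lie in the 5′ untranslated region, were higher per library total. Under ribosomal scaling Ftl1 stood at 0.01 and Slc40a1 turned to -0.09. Whether the hairpins have a part in these directions was not tested.

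**Figure D2:**
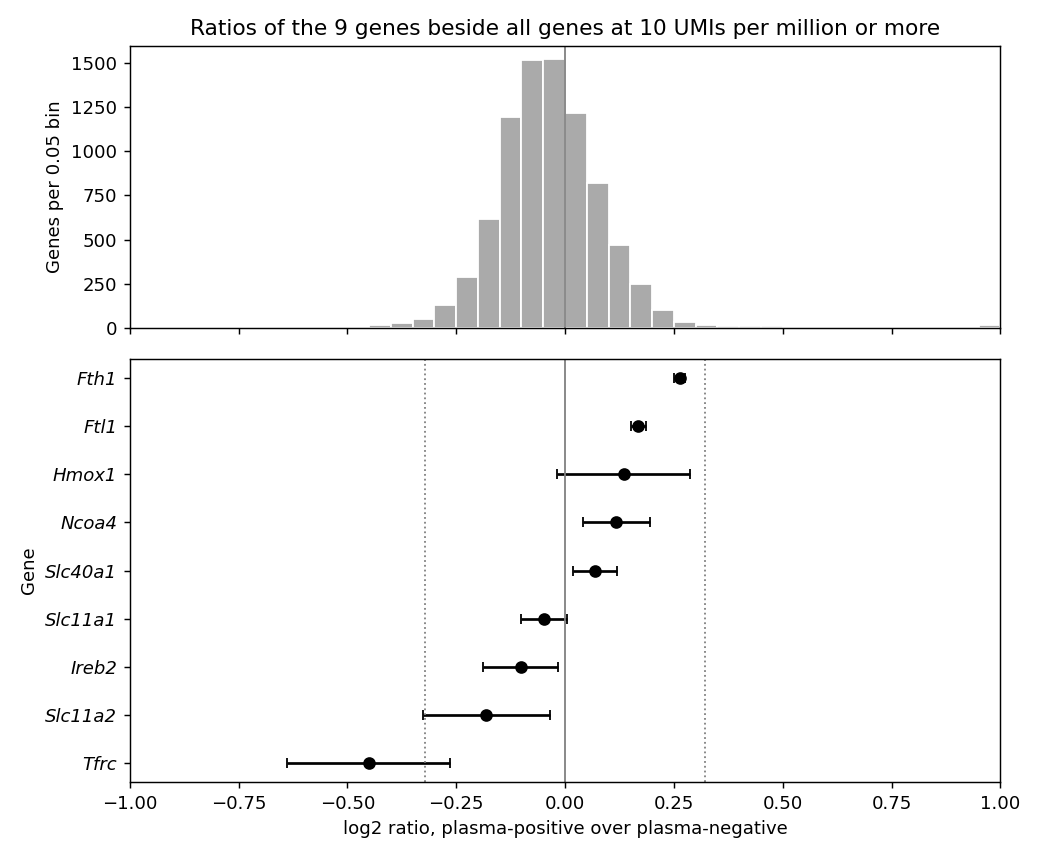
Top, number of genes per bin of log2 ratio for 8355 genes at 10 CPM or more, with ratios beyond the axis placed in the outermost bins. Bottom, log2 ratio of each of the 9 genes with its 95% counting interval and dotted lines at the fold limit, where Tfrc at -0.45 lies outside the lines and Fth1 at 0.26 inside.

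No gene of the wider iron pathway at 10 CPM or more was past the fold limit. A list of 82 further genes of iron and heme handling had 54 members at 10 CPM or more. Of these, 31 were higher and 23 lower, 0 were past the limit in either direction, and the median log2 ratio was 0.02. Among all 8355 genes at that level 35.7% were higher, against 57.4% of the list, and the median was -0.04. With 0.934% and 0.862% of those genes past the limit, 0 of 54 is near the share of all genes and is not a result about the list. These signs depend on scaling, since TMM moves every ratio by 0.04 and ribosomal scaling by -0.16, so that small ratios in the roles below turn. The ratios ran from -0.24 for Cpox, an enzyme of heme synthesis (31.0 and 26.2 CPM), to 0.21 for Slc48a1, a heme transporter of endosomes and lysosomes (17.5 and 20.2).

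Uptake and reduction genes gave 7 of 10 higher, with a median of 0.03. Their most abundant members were Trf, which encodes transferrin itself, Picalm, a clathrin assembly protein that serves endocytosis, and Lrp1, an endocytic receptor. Trf stood at 576 (568 to 584) and 664 (656 to 672), a log2 ratio of 0.21 (0.18 to 0.23). Picalm had -0.10 and Lrp1 0.01. Transcripts of the ligand were higher in the library where those of its receptor were lower. Tfr2, another transferrin receptor, had 2 and 0 UMIs, too few for a ratio. Steap3, an endosomal iron reductase, had 61 and 100 UMIs, a log2 ratio of 0.43 (-0.04 to 0.92).

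Of the storage, chaperone and ferritinophagy genes 2 of 5 were higher, with a median of -0.02. Herc2, an E3 ligase acting on NCOA4, had -0.03, the autophagy receptor Tax1bp1 -0.04, and the iron chaperone Pcbp1 -0.02. The ferritin of mitochondria, Ftmt, had 0 UMIs in both libraries, where the floor of 3 counts stands for 0.0869 and 0.0715 CPM and the exact Poisson upper limits are 0.107 and 0.0879. None of the 5 export genes reached 10 CPM. Cp, the ferroxidase ceruloplasmin, had 67 and 101 UMIs, a log2 ratio of 0.31 (-0.15 to 0.78), Hamp, which encodes the hormone hepcidin, had 6 and 3, and Heph, Hephl1 and Hamp2 had 0 in both.

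Regulators were split, with 5 of 9 higher and a median of 0.00. The RNA-binding factor Zfp36l1 had -0.05, Nfe2l2, which encodes the oxidative stress factor NRF2, 0.00, and Bach1, a heme-sensing repressor, -0.02. Aco1, which encodes the other iron regulatory protein, stood at 18.9 and 19.6 CPM, a log2 ratio of 0.05 (-0.10 to 0.20), and Fbxl5, the ubiquitin ligase adaptor that removes IREB2 when iron is ample, at 73.6 and 69.8, a log2 ratio of -0.08 (-0.15 to 0.00). Heme genes gave 5 of 11 higher with a median of -0.01, including 0.04 for Hmox2, 0.12 for Blvrb and -0.01 for Alas1, the first enzyme of heme synthesis. Mitochondrial iron genes gave 7 of 14 higher with a median of 0.01, including Iscu at -0.03, Cisd2 at -0.11 and Sdhb at 0.04. Of 8 listed lipid peroxide defence genes, 5 reached 10 CPM. All 5 were higher per library total, by a median of 0.05 that ribosomal scaling turns negative. Gpx4 stood at 0.13, Acsl4 at 0.04 and Gclc at 0.03.

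Depth and mitochondrial share differed between the libraries, so both were held within bins. All kept cells of both libraries were ranked together and split into 10 bins of equal size. By UMIs per cell, ferritin was higher in plasma-positive cells in 10 of 10 bins, from 0.07 (-0.05 to 0.19) in bin 1, the shallowest cells, to 0.32 (0.30 to 0.34) in bin 10, the deepest. Ribosomal protein transcripts were also higher in 10 of 10 bins, by 0.16 in bin 1, more than ferritin, and by 0.22 in bin 10, less than ferritin. Tfrc was lower in 9 of 10 bins, the exception being bin 2 at 0.41 (-0.44 to 1.26) from 26 and 25 UMIs. Its lowest value was -1.07 (-2.00 to -0.20), in bin 4. Counting intervals of Tfrc lay wholly below 0 in 5 bins and those of ferritin wholly above 0 in 9.

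By mitochondrial share, ferritin was higher in 10 of 10 bins, between 0.08 (0.04 to 0.12) in the lowest and 0.45 (0.41 to 0.49) in the highest. Ribosomal protein transcripts were again higher in 10 of 10 bins, by 0.12 in the lowest, more than ferritin, and by 0.32 in the highest. Their part in the ferritin differences within bins was not tested. Tfrc was lower in 9 of 10 bins, from -0.93 (-1.53 to -0.35) in bin 4 to 0.17 (-0.51 to 0.88) in bin 9. The Tfrc to ferritin quotient was lower in plasma-positive cells in 10 of 10 mitochondrial bins and in 9 of 10 depth bins. Levels also differed with depth itself. In the plasma-negative library ferritin stood at 1309 CPM in bin 1, 5118 in bin 2 and 4133 in bin 10, and ribosomal protein transcripts were likewise lowest in bin 1. Slc40a1 stood at 240, 145 and 186 CPM in the same bins.

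**Figure D3:**
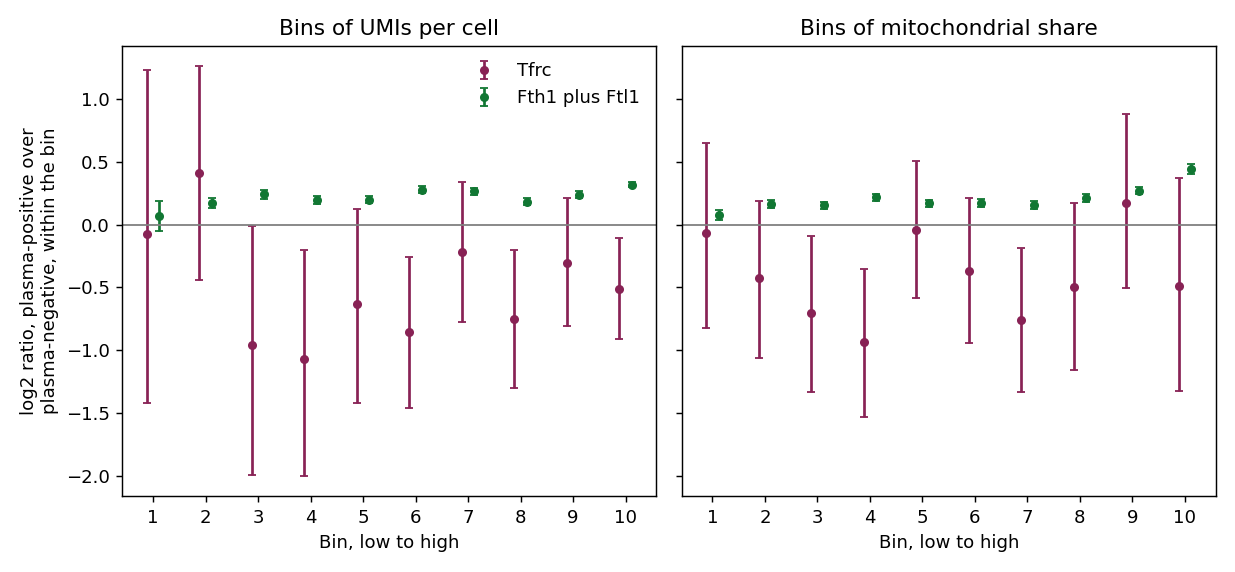
Log2 ratio, plasma-positive over plasma-negative, of Tfrc (purple) and of Fth1 plus Ftl1 (green) within 10 bins of UMIs per cell (left) and of mitochondrial share (right), with 95% counting intervals. Both panels split the same cells. In each, ferritin lies above 0 in 10 of 10 bins and Tfrc below 0 in 9 of 10, with wide intervals for Tfrc.

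At equal depth, both the lower and the upper quartile of ferritin UMIs were higher in the plasma-positive library. The median, a whole count, was 4 UMIs in both. To compare cells at equal depth, each was thinned to 1000 UMIs, which left out 796 plasma-negative and 603 plasma-positive cells. A plasma-negative cell then held a mean of 4.46 ± 3.09 ferritin UMIs (SD over 9064 cells, which are not replicates) and a plasma-positive cell 5.12 ± 3.68 (SD over 9759 cells). The quartiles were 2, 4 and 6 UMIs against 3, 4 and 7. At least 10 ferritin UMIs were held by 5.49% (5.03% to 5.98%, exact binomial) and 9.29% (8.73% to 9.89%) of thinned cells. At least 1 UMI of ferritin was held by 95.8% and 96.2% of them, and by 94.5% and 95.9% without thinning.

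**Figure D4:**
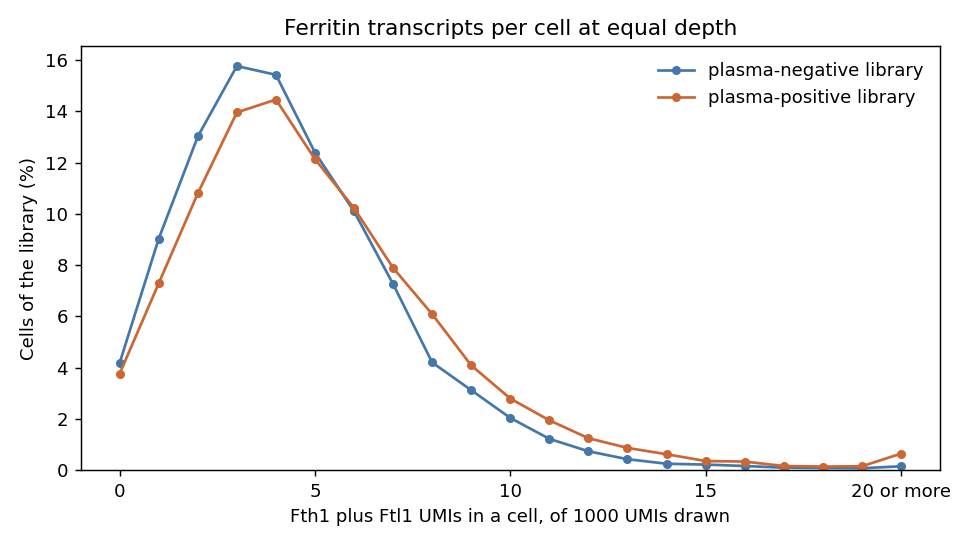
Share of cells (%) by the number of Fth1 plus Ftl1 UMIs among 1000 UMIs drawn from each cell, in the plasma-negative (blue) and plasma-positive (orange) library, with 20 or more pooled at the right. The plasma-positive curve lies to the right, with 9.29% against 5.49% of cells at 10 or more.

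Tfrc was sparse. Without thinning, at least 1 UMI was found in 4.32% (3.93% to 4.74%) of cells of the plasma-negative library and 3.68% (3.32% to 4.06%) of the other, and no cell held more than 4. After thinning these shares were 1.31% (1.09% to 1.57%) and 1.08% (0.881% to 1.30%). The intervals of the 2 libraries overlap both before and after thinning. For Hmox1, cells with a UMI made up 5.82% and 7.29% before and 1.74% and 1.94% after thinning. For Slc40a1 they were 38.0% and 43.0% before and 14.0% (13.3% to 14.7%) and 15.3% (14.6% to 16.0%) after.

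Ferritin was also set against Tfrc cell by cell, as a description without a test. Thinned plasma-negative cells with 0 Tfrc UMIs held a mean of 4.47 ferritin UMIs and those with 1 held 4.36 (SD 2.60, 115 cells). In plasma-positive cells the means were 5.13 and 4.50 (SD 3.35, 101 cells). At 2000 UMIs per cell they were 9.05 and 9.06 in plasma-negative and 10.5 and 10.3 in plasma-positive cells. Across thinned cells of 1 library, which share that library and a fixed total, Pearson's r of Tfrc with Fth1 was -0.009 in 9064 plasma-negative and -0.011 in 9759 plasma-positive cells. Such values in sparse counts are no finding. Fth1 and Ftl1 counts went together, with r of 0.26 and 0.35.

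The genes whose counts followed Fth1 most closely over the same cells, out of 710 genes at 200 CPM or more in both libraries, were Rps29 (r of 0.26 in plasma-negative and 0.35 in plasma-positive cells), Ftl1, Tmsb4x (0.25 and 0.30), Fau (0.24 and 0.31) and Rps24 (0.23 and 0.29). Rps29, Fau and Rps24 encode ribosomal proteins, and Tmsb4x encodes the actin-binding thymosin beta 4. For Tfrc the 5 closest were Hspa5, Dstn, Rpl23a, H2afz and Rpn1, with r of 0.02 in each library for all but H2afz, at 0.02 and 0.03. These values are too small to rank genes by.

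Members were then compared among cell classes. On thinned cells, a class held at least 3 UMIs of Apoe, of an 18-gene interferon list, of a 16-gene cell cycle list or of a 15-gene immediate early list. Apoe encodes the lipid carrier apolipoprotein E. The Apoe class took 147 plasma-negative (1.62%) and 633 plasma-positive (6.49%) cells, and the interferon class 144 (1.59%) and 515 (5.28%), with 3 and 134 cells in both. Such classes are ranges of a count and not cell types: 125 and 232 cells lay just under the Apoe limit at 2 UMIs, and 50 and 123 just above it at 3. Levels below use all UMIs of these cells.

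Fth1 was at its highest in the Apoe class of either library. It stood there at 4059 CPM in plasma-negative and 6050 in plasma-positive cells, against 2849 and 3195 in cells of none of the 4 classes. The log2 ratio of the Apoe class over these cells of no class was 0.51 (0.45 to 0.57) in the plasma-negative and 0.92 (0.90 to 0.94) in the plasma-positive library. For Ftl1 it was 0.37 (0.28 to 0.46) and 0.65 (0.61 to 0.68). In the interferon class Fth1 stood at 3498 and 4876, log2 ratios of 0.30 and 0.61. Ribosomal protein transcripts were also higher in the Apoe class, by 0.40 and 0.54, and in the interferon class, by 0.19 and 0.28, and their part in the ferritin levels was not tested. Median depth in the Apoe class was 3482 and 4358 UMIs, against 3395.5 and 3826 in cells of no class.

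Slc40a1, the exporter, was lower in several classes than in cells of no class. In the Apoe class it stood at 125 (97.1 to 158) and 116 (104 to 129) CPM, against 167 (163 to 172) and 181 (176 to 186) in cells of no class. The log2 ratio of the classes was -0.42 (-0.79 to -0.08) in the plasma-negative and -0.64 (-0.80 to -0.49) in the plasma-positive library. In the interferon class it was -0.28 (-0.62 to 0.04) and -0.53 (-0.71 to -0.36). The cell cycle class gave -0.06 (-0.46 to 0.31) and -0.60 (-0.91 to -0.31), and the immediate early class -0.17 (-0.29 to -0.04) and -0.06 (-0.17 to 0.05). Among cells of no class, its log2 ratio between the libraries was 0.11 (0.06 to 0.17), against 0.07 over all cells.

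Hmox1 in the plasma-positive library stood at 33.5 (27.4 to 40.5) CPM in the Apoe class and 30.4 (23.6 to 38.5) in the interferon class, against 18.0 (16.6 to 19.5) in cells of no class. In the plasma-negative library it stood at 16.3 (7.45 to 30.9), 20.97 (10.8 to 36.6) and 17.3 (15.8 to 18.9), from 9 and 12 UMIs in the classes. The cell cycle class also had a high Hmox1 level, 38.1 (20.8 to 63.9) and 25.6 (15.7 to 39.6) from 14 and 20 UMIs. Among cells of no class Hmox1 differed by 0.06 (-0.11 to 0.24) between the libraries.

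Ncoa4 and Ireb2 in the Apoe class of the plasma-positive library were each lower than in cells of no class, at log2 ratios of -0.32 (-0.54 to -0.11) and -0.32 (-0.58 to -0.08). In the plasma-negative library these ratios were -0.06 (-0.57 to 0.40) and 0.23 (-0.28 to 0.69). Ireb2 was also lower in the plasma-positive immediate early class, at -0.21 (-0.42 to -0.004), and the remaining class intervals of both genes took in 0. Those of Slc11a1 took in 0 in all but the plasma-positive cell cycle class, at -0.30 (-0.61 to -0.002), and those of Slc11a2 in all but the plasma-negative immediate early class, at -0.38 (-0.76 to -0.02).

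Tfrc was at its highest in the cell cycle class, with 32.7 (16.9 to 57.0) CPM in 96 plasma-negative cells and 23.1 (13.7 to 36.5) in 165 plasma-positive cells, from 12 and 18 UMIs. Cells of no class stood at 14.0 (12.6 to 15.4) and 10.4 (9.32 to 11.6), so that the class was higher by 1.23 (0.26 to 2.05) and 1.15 (0.38 to 1.83) on the log2 scale. The cell cycle class held 1.06% and 1.69% of thinned cells, the larger share with the dye. What this share contributes to the Tfrc level of the whole library was not tested. The interferon class of the plasma-positive library had the lowest Tfrc, 5.36 (2.77 to 9.36) from 12 UMIs, and its plasma-negative counterpart 15.7 (7.19 to 29.9) from 9. In the immediate early class, whose genes are known to respond to tissue dissociation, Tfrc differed by 0.07 (-0.35 to 0.46) and 0.32 (-0.11 to 0.72) over cells of no class.

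**Figure D5:**
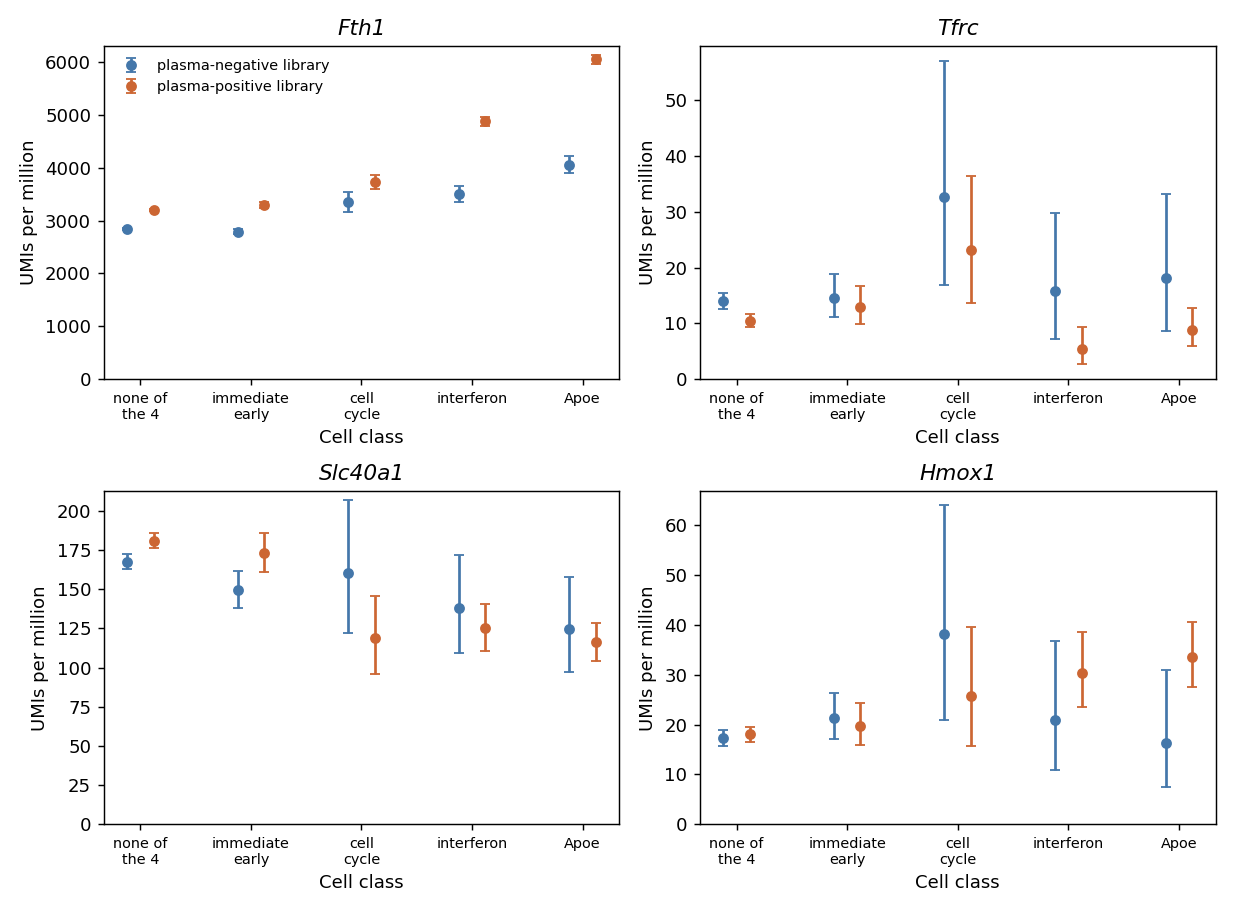
Levels in CPM of Fth1, Tfrc, Slc40a1 and Hmox1 by cell class in the plasma-negative (blue) and plasma-positive (orange) library, with exact 95% Poisson intervals. Fth1 is highest in the Apoe class (4059 and 6050), where Slc40a1 is low (125 and 116), and Tfrc is highest in the cell cycle class (32.7 and 23.1).

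The opposite differences of Tfrc and ferritin were also present in cells outside these classes. In 7588 plasma-negative and 7642 plasma-positive cells of no class, Tfrc differed by -0.42 (-0.64 to -0.21), Fth1 by 0.17 (0.15 to 0.18) and Ftl1 by 0.12 (0.10 to 0.14). Tfrc per 1000 ferritin UMIs was 3.21 and 2.16 in these cells, a log2 ratio of -0.57 (-0.78 to -0.36). Ribosomal protein transcripts differed there by 0.11.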

How the data were processed

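The authors deposited a matrix of raw UMI counts for each library. Its header names Cell Ranger 6.1.2, per the file headers, whereas version 3.0.1 is given per the submitters' processing notes. The feature lists hold other information, namely gene identifiers and symbols, as the authors deposited them. Library preparation used the Chromium Single Cell 3′ v3.1 kit per the labels' protocols. The genome build, the annotation and the use of strand are not given in the sources used here. Of 31053 identifiers, 30934 were found in GENCODE M21, used for coordinates and transcript sequences.

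Cells were kept with at least 500 UMIs, 300 genes and at most 10% mitochondrially encoded UMIs. This took out 1 cell for genes and 17 for mitochondrial share in the plasma-negative library, and 0 and 28 in the plasma-positive library. No doublet caller was run and doublets were kept. An alternative left out the 779 and 861 cells of highest UMI count, the expected rates of 7.90% and 8.31%. Cell barcodes were not analysed here. Counts were summed per library and divided by its total to give CPM, with no length correction, since molecules are counted near the 3′ end. Poisson, binomial (Clopper-Pearson) and conditional binomial intervals were exact, and the quotient had a log-scale (Woolf) interval. All cover counting error only. The interval code was tested on simulated data. TMM factors came from edgeR 4.0.16 (R 4.3.3), and the rest from Python 3.11.15 with scipy 1.17.1, numpy 2.4.6, pandas 2.3.3 and matplotlib 3.10.9.

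The 9 members, the lists and the fold limit were chosen with earlier results of these data known. Named genes were all members and, of the pathway list, those past the fold limit and the 3 most abundant of each role. Cpox, Slc48a1, Steap3, Cp, Hamp, Heph, Hephl1, Hamp2, Tfr2, Ftmt, Aco1 and Fbxl5 were added after their values were seen.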

Additional observations from a re-analysis of the deposited data

How the results depend on the processing

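Tfrc was lower in the plasma-positive library under all 13 alternatives tried, with log2 ratios from -0.61 to -0.29. Thinning cells to 1000 and 2000 UMIs gave it -0.29 and -0.29, short of the fold limit, and shrank its log2 ratio by over 1.5 times. Both values lay within its counting interval, and equal weight to 10 bins of UMIs per cell gave -0.45. Under ribosomal scaling, which moves every log2 ratio by -0.16, Slc11a2 passed the fold limit, at -0.34. At 10 CPM or more, 721 of 8355 genes (8.63%) had a lower ratio than Slc11a2 and passed that limit too. Ferritin was higher under all 14, from 0.072 to 0.27. Ferritin moved beyond its narrow counting interval to 0.22 without the highest-UMI cells at the expected doublet rate, 0.20 and 0.21 with cells thinned to 1000 and 2000 UMIs, 0.21 with equal weight to bins of mitochondrial share, 0.15 without Apoe-high and interferon-high cells, 0.25 without mitochondrial and ribosomal genes in the total, and 0.27 with TMM scaling. Scaling by ribosomal protein UMIs, chosen after seeing the data, gave ferritin 0.072. The log2 ratio of the Tfrc to ferritin quotient moved to -0.49 with cells thinned to 1000 UMIs and otherwise lay within its interval. The cause was not tested. Genes past the fold limit numbered 78 higher and 72 lower with a minimum of 10 CPM, 5 and 1 with 200 CPM and 5 and 0 at 1.5-fold, as the limits set. TMM scaling gave 20 higher, and thinning to 1000 UMIs gave 19 lower. Of 158 recomputed values, 119 stayed within the counting interval or within 1.5 times for counts, and 3 signs turned, those of Slc40a1, Hmox1 and Ncoa4 under ribosomal scaling. No paired analysis was possible because a single library stood for either sort, which also leaves no replicate to leave out. Depth limits Tfrc, whose 496 and 441 UMIs give a log2 interval from -0.64 to -0.26 that leaves out the spread between animals or sorts.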
